A study of Mus musculus with 8 samples.

Results

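The genes described here are the Wnt ligands, their receptors and the beta-catenin pathway, as a list of 49 symbols that was matched to the first column of the processed table. 46 of the 49 were found among its 13558 transcripts, and Wnt10a, Dkk1 and Sp5 are not analysed here. mRNA was sequenced in mouse embryonic stem (mES) cells, which derive from blastocysts, in 4 libraries of Trim-/- cells (KO) and 4 of Trimfl/fl cells (WT). Trim71, an RNA-binding protein of stem cells with a ubiquitin ligase domain, carries a floxed exon 4 in both groups, and per the study's methods both also carry CreER at the ubiquitously transcribed Rosa26 locus. In the KO cells the exon was removed with 4-hydroxytamoxifen (4-OHT), per the labels at 500 nM over 2 days, followed by at least 7 days of culture. The study's methods differ and give a lower dose over the same time and a shorter culture afterwards. The WT cells kept the floxed exon and, per the study's methods, had received the solvent DMSO. All 8 libraries were male, of the strain C57BL/6, grown with FCS and LIF, and sorted for the surface antigen SSEA-1. The methods add a medium conditioned by embryonic fibroblasts on gelatin. KO libraries 1, 2 and 3 (days 2, 3 and 4 in the labels) and WT libraries 2 and 3 (days 3 and 4) came from clone E3, and KO library 4 (day 5) and WT libraries 1 and 4 (days 1 and 5) from clone 1. Nothing in the labels says that libraries of one clone came from separate cultures, so the p-values measure the spread between these libraries only.

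Wnt proteins are lipid-modified signals. Porcn attaches the lipid, Wls carries the protein to the cell surface, and a Frizzled receptor together with Lrp5 or Lrp6 receives it. Without a signal, a complex of Axin, Apc, Gsk3 and casein kinase 1 marks beta-catenin (Ctnnb1) for degradation. With a signal, Dishevelled blocks that complex, and beta-catenin accumulates and joins TCF factors at their target genes. In mES cells this arm of the pathway is known to favour self-renewal, in part by relieving repression by Tcf7l1, and Ror1, Ror2 and Ryk are receptors for signals that bypass beta-catenin.

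The values are normalized read counts from which the authors had subtracted an additive clone effect, with values under 1 set to 1. That subtraction could be undone for all 46 members, which gave whole reads, and the libraries held 6762523 (WT library 2) to 25161488 (WT library 3) such reads. Trim71 itself stood at 247 to 793 in the KO and at 1988 to 2782 in the WT libraries, so the groups did not overlap. KO libraries 1 and 3 stood furthest from the other KO libraries by base composition. Their directions were opposite but not independent of each other, as described after Apc below. All 8 ES cell markers looked up were measured and none had an unadjusted p under 0.05, while Utf1 had one with libraries of the same day paired (0.55, unadjusted p = 0.0037). Their summed level was 65499 to 86373 in KO and 59155 to 76229 in WT libraries. Markers of other cell types were far lower in sum. Fibroblast markers (6 of 10 measured) reached 201 to 313 in KO and 161 to 262 in WT libraries, mesoderm markers (5 of 7) 187 to 243 and 140.4 to 223, primitive endoderm markers (7 of 8) 279 to 602 and 92.6 to 474, and neural markers (6 of 8) 1560 to 2056 and 1549 to 2152. The ranges of both groups overlapped for each of these sums. Of the 6 neural markers 2 had an unadjusted p under 0.05, Olig2 with a log2 fold change (KO minus WT) of 0.68 (unadjusted p = 0.0033) and Nes with -0.50 (unadjusted p = 0.016). Of the 6 fibroblast markers 1 did, Col5a2 (0.68, unadjusted p = 0.01), and of the 5 mesoderm markers Eomes did (0.51, unadjusted p = 0.038). Olig2 and Col5a2 also had a fold of at least 1.5. Of the 7 primitive endoderm markers 0 had one in limma, with a median log2 fold change of 1.32. Gata6 (1.79), Gata4 (1.41), Sox17 (1.34), Foxa2 (1.32) and Sox7 (0.74) were higher in KO, and Pdgfra (-0.48) and Dab2 (-0.34) lower. WT library 1 was at 1, the floor, for Gata6, Sox17 and Foxa2 and at 1.72 for Gata4. WT library 4, also of clone 1, was at 1 for Foxa2, 3.35 for Sox17 and 8.20 for Gata6, but at 97.0 for Gata4. Among the clone E3 libraries the KO and WT values of Gata6, Gata4, Sox17, Foxa2 and Sox7 overlapped. With libraries of the same day paired, 2 of the 7 had an unadjusted p under 0.05, Pdgfra (-0.68) and Dab2 (-0.75), both lower in KO. The part of these markers in the results below was not tested.

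Transcript levels of the pathway differed little between the genotypes. The median log2 fold change (KO minus WT, on log2(value + 1)) was -0.03 over the 46 members and 0.00 over all transcripts, and the median absolute change was 0.14 and 0.18. 3 members, Wnt8a, Ror1 and Apc, passed the fold change criterion, an unadjusted p under 0.05 with a fold change of at least 1.5, and all 3 were lower in KO cells. That is 6.52% of the members, where 2.49% of all transcripts passed in that direction, and none passed in the other, where 1.76% of all did (4.25% in either direction). 4 members had an unadjusted p under 0.05, which is 8.7% of them against a background of 9.09%. Without KO library 3, Wnt8a and Ror1 passed the criterion and Apc did not. In 4 members (8.7%) the libraries of the groups did not overlap, against 10.1% of all transcripts. After Benjamini-Hochberg adjustment in limma over all 13558 transcripts no member passed (smallest adjusted p 0.42), nor did any other transcript (smallest adjusted p 0.28, with 1232 at an unadjusted p under 0.05). Of the other fits, limma's voom on the recovered reads passed 2 transcripts, voom with the day as a block 5 (smallest adjusted p of a member 0.091) and limma on the values with the clone correction undone 6, none of them a member.

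A KO and a WT library shared a day on days 3, 4 and 5, and such pairs were taken as pairs because the labels give both the same day. With the clone correction undone all 3 pairs deviated together, whereas in the deposited values, which this fit uses, the day 5 pair did not (r = -0.23). When the day was taken as a block over these 6 libraries, 9 members (19.6%) had an unadjusted p under 0.05, where 19.2% of all transcripts had one. 5 of them (10.9%, background 7.49%) had a fold of at least 1.5 as well, namely Wnt3a, Wnt8a, Ror1, Ror2 and Apc. Both shares rose from the fit over 8 libraries for the members as they did for the whole table.

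**Figure D1:**
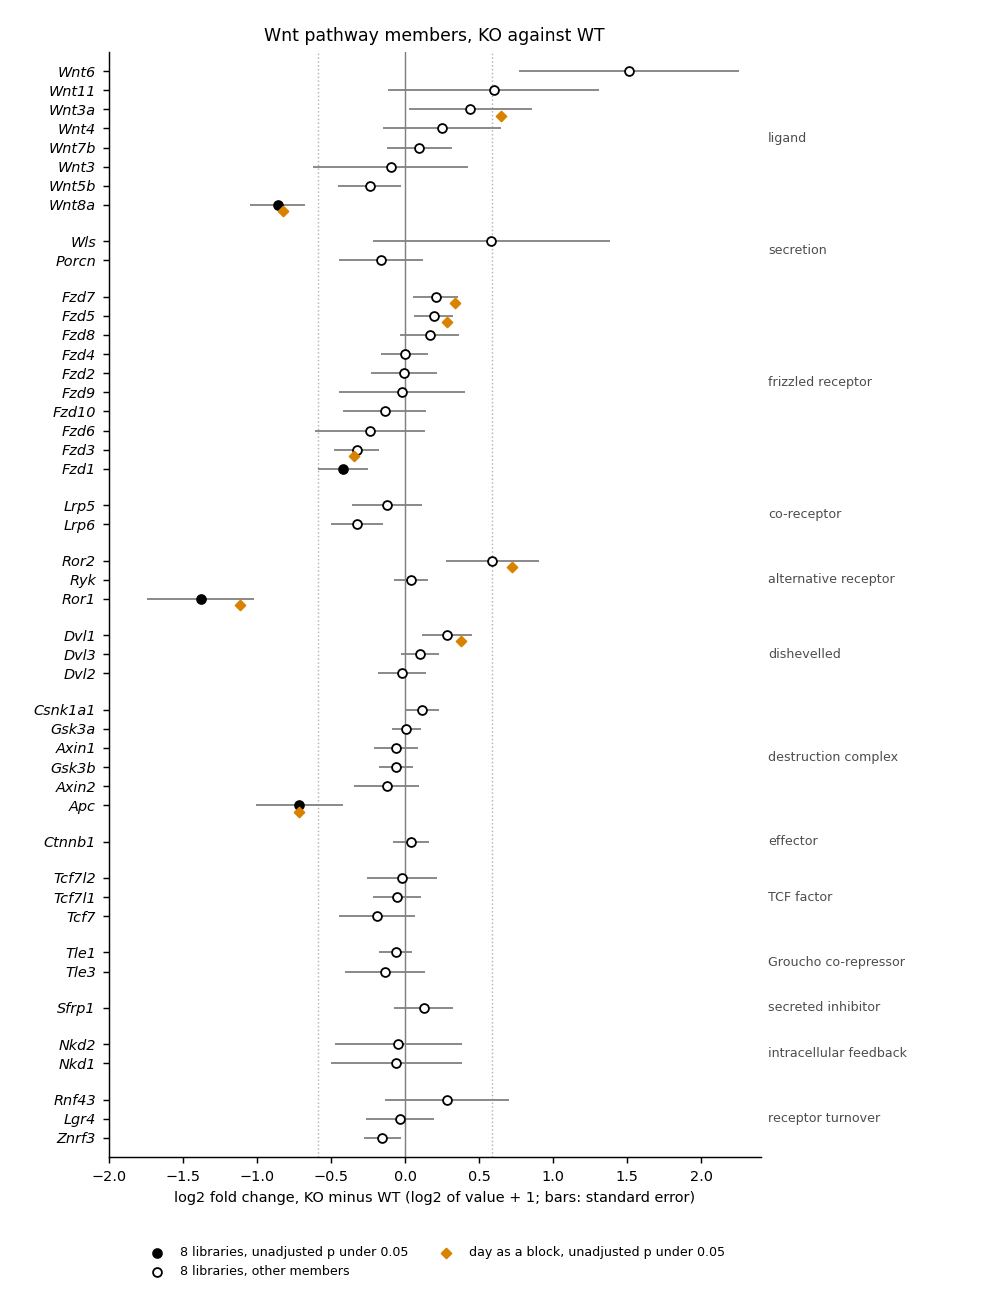
Log2 fold change (KO minus WT) of each member on the x axis, grouped by role on the y axis, with standard errors as bars and dotted lines at a fold of 1.5. Filled circles mark the 4 members with an unadjusted p under 0.05 over 8 libraries, and orange diamonds give the value with day as a block for the 9 members that had an unadjusted p under 0.05 there. 32 of the 46 members lie within 1 standard error of 0, and Ror1, Wnt8a and Apc lie furthest to the left.

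The members' levels spanned a wide range. Levels of different genes are compared here as normalized read counts per kilobase of annotated exon, averaged over the WT libraries. 11 members were under 10, 14 between 10 and 100, 20 between 100 and 1000, and only Ctnnb1 lay above 1000, at 3685. Of 8 ligands measured, 6 were among the 11 low members. The cytoplasmic and nuclear part of the pathway, from the Dishevelled proteins to the TCF factors, stood mostly above 100, with Axin2 (48.2) and Tcf7l2 (34.1) as the exceptions.

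**Figure D2:**
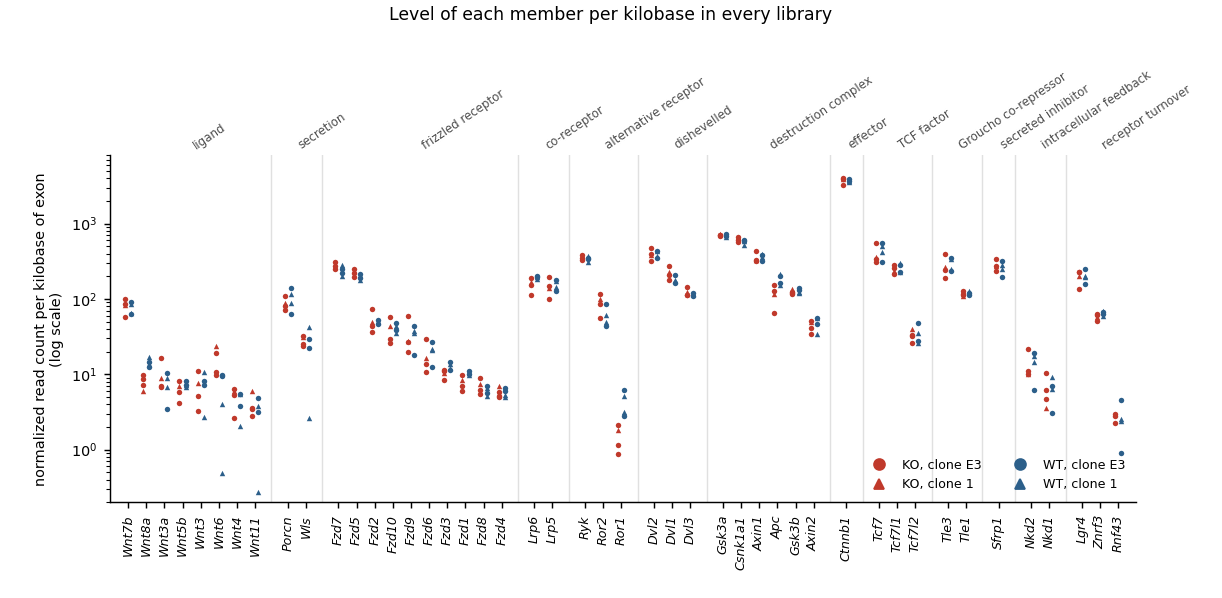
Normalized read count per kilobase of exon (y axis, log scale) of the 46 members in every library, grouped by role and ordered within a role by the WT mean. Red marks KO and blue WT libraries, circles clone E3 and triangles clone 1. Within most genes the red and blue points overlap, and the ligands other than Wnt7b sit at the lower end.

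Among the ligands, Wnt8a was the one that differed. Wnt8a, a ligand of the beta-catenin arm that is known from the early embryo, stood at 12.5, 17.1, 14.9 and 10.3 normalized read counts in KO libraries 1 to 4 and at 23.7, 21.5, 25.1 and 29.7 in WT libraries 1 to 4. Every KO library was below every WT library, with means of 13.7 ± 2.92 (SD) in KO against 25.01 ± 3.47 in WT. The fit gave a log2 fold change of -0.86 ± 0.19 (SE), or 1.82-fold lower in KO (unadjusted p = 0.0022, adjusted p = 0.42). The exact two-sided permutation test over the 70 assignments of libraries gave p = 0.0286, the smallest it can give. That test leaves out clone and day, and its smallest p restates that the groups did not overlap. The difference had the same sign on each of the days 3, 4 and 5 (-0.32, -0.72 and -1.44 on the log2 scale). These values rest on few reads, 7, 13, 10 and 12 in the KO and 35, 9, 44 and 27 in the WT libraries. With the clone correction undone, KO library 4 (16.0) came to lie just above WT library 2 (15.9), while the fit still gave -0.92 with an unadjusted p of 0.0011. The gene lies at chr18:34542313-34548273 on the plus strand (mm10). In bulk samples, fewer cells that express a gene and less RNA per cell cannot be told apart.

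Wnt7b was the most abundant ligand, at 76.2 per kilobase, and its WT values did not overlap with those of the next, Wnt8a (14.3), which stood apart from Wnt3a (7.37). The order of the others, Wnt3a, Wnt5b, Wnt3, Wnt6, Wnt4 and Wnt11, was not resolved, since each overlapped with its neighbour. Wnt7b stood at 389.7, 457, 269 and 388 in KO and 301, 425, 290.4 and 390.2 in WT libraries, with a log2 fold change of 0.09 (unadjusted p = 0.68), so the groups were interleaved.

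Wnt6 had the highest fold change of the members, with a wide error. It stood at 20.2, 22.4, 39.9 and 49.8 in KO and at 1.000, 19.8, 20.3 and 8.23 in WT libraries. The fit gave a log2 fold change of 1.51 ± 0.74 (SE) with an unadjusted p of 0.081. WT library 1 sits at the floor, although 7 reads were recovered there, because the clone correction had lowered it. With the correction undone, the values were 12.7, 14.9, 32.4 and 57.3 in KO and 5.87, 12.3, 12.8 and 15.7 in WT libraries, the log2 fold change was 1.20 and the unadjusted p 0.0497, past the criterion. KO library 4, of clone 1, was then the highest by far, and KO libraries 1 and 2 lay within the WT range. Wnt6 passed the criterion in 7 of 22 alternative fits, among them voom with the day as a block (1.32, unadjusted p = 0.0094), but in none of the 8 that leave out 1 library. Within clone E3 alone its log2 fold change was 0.37 (unadjusted p = 0.30), and it was 0.37 without KO library 4 (unadjusted p = 0.58) and 0.99 without WT library 1 (unadjusted p = 0.071).

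Wnt3a, the classical ligand used to keep mES cells in culture, passed only with the day as a block. Its values were 18.98, 19.3, 45.5 and 24.4 in KO and 24.5, 9.69, 28.3 and 18.8 in WT libraries, and the groups overlapped (log2 fold change of 0.44 ± 0.41 (SE), unadjusted p = 0.32). On each of the 3 shared days the KO library was higher, by 0.92, 0.66 and 0.36, and the blocked fit gave 0.65 with an unadjusted p of 0.01. Without KO library 3 the value over the remaining 7 libraries was 0.18, and it ranged from 0.01 to 0.78 over the libraries left out in turn. Wnt3, Wnt4, Wnt5b and Wnt11 had log2 fold changes of -0.10, 0.25, -0.24 and 0.60 with unadjusted p-values of 0.29 or more. Of Wnt11 only 4 reads were recovered in WT library 1, whose deposited value is at the floor.

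**Figure D3:**
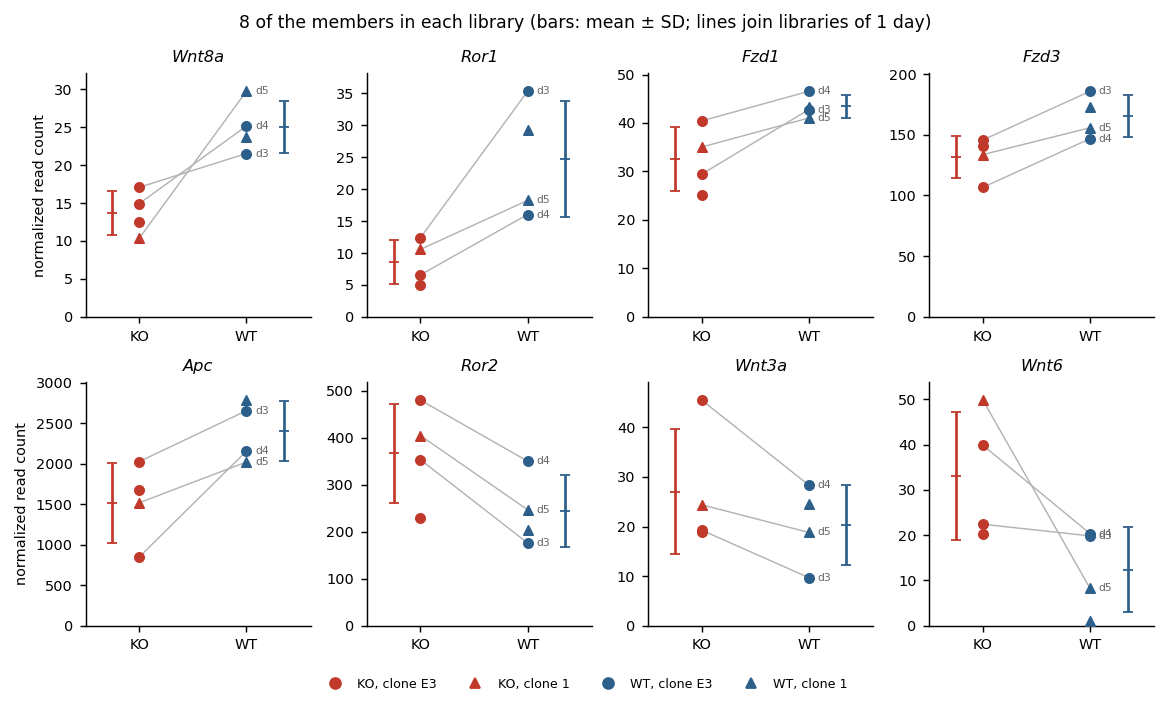
Normalized read counts (y axis, from 0) of 8 of the members in each KO (red) and WT (blue) library, with circles for clone E3, triangles for clone 1, bars for the mean and SD, and grey lines joining libraries of the same day. The groups do not overlap for Wnt8a, Ror1, Fzd1 and Fzd3, whereas Apc, Ror2, Wnt3a and Wnt6 overlap although all 3 lines of each run the same way.

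Neither gene of the secretion machinery passed the test. Porcn, the acyltransferase, stood at 153, 205, 136 and 166 in KO and 219, 269, 119 and 167 in WT libraries (log2 fold change -0.16, unadjusted p = 0.58). Wls, the carrier, gave 0.58 with a standard error of 0.80, and its values are taken up with the clones below.

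All 10 Frizzled receptors were measured. Fzd7, a receptor prominent in stem cells, was the most abundant at 240.0 per kilobase, and overlapped in the WT libraries with Fzd5 (198). Both stood apart from Fzd2 (49.8). Fzd2, Fzd10, Fzd9, Fzd6 and Fzd3 followed with overlapping neighbours, then Fzd1, which lay apart from Fzd3 and from Fzd8, and Fzd8 and Fzd4 overlapped at the low end (6.13 and 5.75).

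2 Frizzled receptors had no overlap between the genotypes, both with modest differences. Fzd1 stood at 25.2, 29.4, 40.4 and 35.03 in KO and at 43.3, 42.8, 46.5 and 41.04 in WT libraries, each KO library being below each WT library. Its log2 fold change of -0.42 ± 0.17 (SE) corresponds to a 1.34-fold lower level (unadjusted p = 0.041, adjusted p = 0.53). The unadjusted p was 0.05 or more in 7 of the 8 fits that leave out 1 library and 0.051 with the day as a block. With the correction undone the groups overlapped, KO library 3 (43.5) lying above WT libraries 1 and 4 (40.2 and 38.0).

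Fzd3, best known for planar polarity and axon guidance, stood at 141, 146, 107 and 134 in KO and 173, 186, 147 and 156 in WT libraries. The highest KO library lay just below the lowest WT library, but with the clone correction undone KO library 4 (163) lay above WT library 2 (157) and the groups overlapped. The log2 fold change of -0.33 ± 0.15 (SE) had an unadjusted p of 0.068, and 0.027 with the day as a block (-0.34). Fzd3 is the member with the lowest GC content of its exons (40.3%), and once the trend of each library with GC content and length was removed its log2 fold change turned to 0.07 (unadjusted p = 0.62).

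Fzd5 and Fzd7, the 2 abundant receptors, were slightly higher in KO cells on each shared day. Fzd7 stood at 1127, 1248, 1408 and 1213 in KO and 1289.9, 1007, 1133 and 921 in WT libraries, and the groups overlapped (log2 fold change 0.21, unadjusted p = 0.21). With the day as a block the values were 0.34 for Fzd7 (unadjusted p = 0.02) and 0.28 for Fzd5 (unadjusted p = 0.044), both under a fold of 1.5. Fzd5 stood at 1361, 1748, 1524 and 1628 in KO and 1432, 1480.1, 1316 and 1239 in WT libraries. The other 6 Frizzled receptors had log2 fold changes from -0.23 (Fzd6) to 0.17 (Fzd8) and unadjusted p-values of 0.43 or more.

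Of the receptors that bypass beta-catenin, Ror1 was lower in KO cells. Ror1, a receptor tyrosine kinase-like protein for Wnt5a-type signals, stood at 4.97, 12.4, 6.57 and 10.6 normalized read counts in KO and at 29.2, 35.3, 16.04 and 18.2 in WT libraries. All KO libraries were below all WT libraries, with means of 8.62 ± 3.44 (SD) in KO against 24.7 ± 9.13 in WT. The log2 fold change of -1.38 ± 0.36 (SE) is a 2.6-fold lower level in KO (unadjusted p = 0.0062, adjusted p = 0.45, exact two-sided permutation p = 0.0286). On days 3, 4 and 5 the difference was -1.44, -1.17 and -0.73, and within clone E3 alone -1.56 (unadjusted p = 0.021). Ror1 is also the receptor of lowest level here, 4.29 per kilobase in WT and 1.497 in KO cells, resting on 5, 14, 7 and 8 reads in the KO and 35, 20, 36 and 14 in the WT libraries. Its clone correction was small, and with it undone the groups still did not overlap. In all 23 alternative fits that tested it, Ror1 stayed past the criterion, with log2 fold changes from -1.61 to -0.86. Wnt8a did so in 22 of 23, the exception being a pseudocount of 10 (-0.58).

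Ror2, the close relative of Ror1, was higher in KO cells on each shared day. It stood at 228, 353, 480.4 and 405 in KO and 203, 176, 350.3 and 247 in WT libraries, and KO library 1 (day 2), which has no partner, fell among the WT values. The log2 fold change of 0.59 ± 0.31 (SE) had an unadjusted p of 0.098, and 0.0064 with the day as a block (0.72). Without KO library 1 it was 0.78 (unadjusted p = 0.028) and without WT library 3 0.90 (unadjusted p = 0.021), but the other 6 fits that leave out 1 library had unadjusted p-values of 0.05 or more, down to 0.37 without WT library 2 (unadjusted p = 0.31). Within clone E3 alone it was 0.44 (unadjusted p = 0.35). Ryk, the most abundant of the 3 at 344 per kilobase, stood at 1101, 954, 1028 and 1035 in KO and 905, 982, 1029 and 1096 in WT libraries, with no difference beyond the spread (log2 fold change 0.04, unadjusted p = 0.75).

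Promoters of 32 of the 46 members were taken from a RefSeq table (GRCm38.p6, the assembly called mm10), each from 250 bases before to 50 bases after a transcript start. The chromosome that carries Wnt8a and Apc was left out, so these, Fzd8 and Csnk1a1, which lie on it as well, were not searched. The promoters were searched for the core of the TCF/LEF motif, CTTTGA, on both strands, so that TCAAAG counts as well. 6 of the members' 39 promoters held it (15.4%), in Ror1, Fzd1, Wnt5b, Gsk3a, Gsk3b and Wnt11, a share close to the 16% of 32851 mouse promoters on the other chromosomes that did. 2 of those 6, Ror1 and Fzd1, are members without overlap between the genotypes, and were chosen for display after their values were seen. The other members without overlap, Wnt8a and Fzd3, were not searched, so a link between match and overlap was not tested. Both are shown with the motif in capitals, followed by the promoter of Axin2, a textbook target of beta-catenin. Axin2 held no match in this window, and neither did the targets Nkd1, Rnf43 and Tcf7. The Ror1 promoter is at chr4:100095541-100095840 on the plus strand, with the match 205 bases before the start. Fzd1 is at chr5:4758167-4758466 on the minus strand, with the match 242 bases before the start. Axin2 is at chr11:108920099-108920398 on the plus strand. All 3 are given from 5′ to 3′ along the gene.
Ror1 promoter: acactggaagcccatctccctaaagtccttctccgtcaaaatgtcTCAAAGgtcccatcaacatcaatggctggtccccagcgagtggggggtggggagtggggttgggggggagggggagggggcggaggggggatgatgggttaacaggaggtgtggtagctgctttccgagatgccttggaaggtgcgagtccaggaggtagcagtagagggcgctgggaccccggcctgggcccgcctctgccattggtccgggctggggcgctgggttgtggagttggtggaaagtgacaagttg
Fzd1 promoter: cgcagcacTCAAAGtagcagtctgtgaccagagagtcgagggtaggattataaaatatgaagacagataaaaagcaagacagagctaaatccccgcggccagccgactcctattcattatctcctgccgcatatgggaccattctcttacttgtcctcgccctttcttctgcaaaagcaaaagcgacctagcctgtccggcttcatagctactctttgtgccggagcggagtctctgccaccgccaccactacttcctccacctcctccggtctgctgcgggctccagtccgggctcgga
Axin2 promoter: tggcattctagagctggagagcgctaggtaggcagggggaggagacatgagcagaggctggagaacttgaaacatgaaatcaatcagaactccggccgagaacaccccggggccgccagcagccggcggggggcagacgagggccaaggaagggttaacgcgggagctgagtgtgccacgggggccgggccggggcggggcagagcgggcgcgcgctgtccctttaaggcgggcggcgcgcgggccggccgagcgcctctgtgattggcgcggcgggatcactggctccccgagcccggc
A match of 6 letters is a description of the sequence and not a binding site.

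Co-receptors and Dishevelled genes did not pass the test over 8 libraries. Lrp6 stood at 1445, 1774, 1067 and 1551 in KO and 1804, 1872, 1829.8 and 1715 in WT libraries (log2 fold change -0.32, unadjusted p = 0.11), the 4 WT libraries being close together and KO library 3, of day 4, the lowest. Without KO library 3 its log2 fold change was -0.20 (unadjusted p = 0.13), and without KO library 2 it was -0.42 (unadjusted p = 0.048). With the trend of each library with GC content and length removed it was -0.12 (unadjusted p = 0.33). Lrp5, its homologue, gave -0.12 (unadjusted p = 0.62). Dvl2 was the most abundant Dishevelled at 396 per kilobase, followed by Dvl1 (180.1) and Dvl3 (115), and the WT ranges of the 3 were apart. Dvl2 stood at 1606, 1969, 2405 and 1957 in KO and 2184, 1785, 2195 and 1852 in WT libraries (log2 fold change -0.02). Dvl1 was 598, 692, 908 and 766 in KO and 596, 540.2, 694 and 588 in WT libraries. It was higher in KO on the shared days by 0.36, 0.39 and 0.38, nearly the same amount each time, and the blocked fit gave 0.37 (unadjusted p = 0.013) where the fit over 8 libraries had 0.28 (unadjusted p = 0.13). With the GC and length trends removed, the fit over 8 libraries gave 0.14 for Dvl1 (unadjusted p = 0.14).

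In the destruction complex, 5 of 6 members did not pass the test and Apc did. Gsk3a, a kinase that phosphorylates beta-catenin, was the most abundant at 694 per kilobase and nearly constant over the libraries (1576, 1539.5, 1571 and 1628 in KO and 1577, 1534, 1654 and 1511 in WT, log2 fold change 0.01). Csnk1a1, Axin1, Gsk3b and Axin2 had log2 fold changes of 0.11, -0.06, -0.06 and -0.12 with unadjusted p-values of 0.35 or more. The WT ranges of all neighbours in the order Gsk3a, Csnk1a1, Axin1, Apc, Gsk3b and Axin2 were apart.

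Apc, the scaffold of the complex, stood at 1674, 2026, 847 and 1518 in KO and at 2788, 2656, 2156 and 2022 in WT libraries. KO library 3 (day 4) was the lowest, and KO library 2 lay just above WT library 4, so the groups overlapped by 1 pair of libraries. Means were 1516 ± 494 (SD) in KO against 2405 ± 373 in WT, with a log2 fold change of -0.71 ± 0.29 (SE) (unadjusted p = 0.044, adjusted p = 0.54, exact permutation p = 0.0571). The difference was -0.39, -1.35 and -0.41 on days 3, 4 and 5, so day 4 contributed most. With the day as a block it was -0.72 (unadjusted p = 0.037). Apc passed the criterion in 12 of 24 alternative fits. The log2 fold change was -0.81 with the clone correction undone (unadjusted p = 0.070) and -0.75 within clone E3 alone (unadjusted p = 0.12). Left out in turn, KO libraries 1 and 4 and WT libraries 1, 2 and 3 each took the unadjusted p to between 0.053 and 0.13, and without KO library 3 the log2 fold change was -0.48, under a fold of 1.5. Apc is long (13.2 kilobases of exon) and AT-rich (44.3% GC), and with the trend of each library with GC content and length removed it was -0.41 (unadjusted p = 0.057). The gene lies at chr18:34220924-34322552 on the plus strand.

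The members followed the base composition of single libraries. In KO library 3 the deviation of the 46 members from the other KO libraries correlated with their GC content at r = 0.47, and over 12344 transcripts with a mean of at least 20 at r = 0.62. KO library 1 showed the opposite sign (r = -0.43 and -0.59), and so did KO library 2 (r = -0.33 and -0.33). Each deviation is taken from the other libraries of the group, so 1 library that deviates pushes the others the opposite way. WT library 3, also of day 4, had r = 0.23 and 0.25, and WT library 2 -0.14 and -0.26. These are correlations across genes within single libraries, which share depth and preparation, and genes are not independent replicates. Long AT-rich members such as Apc and Lrp6 were low and GC-rich ones such as Fzd9 high in KO library 3. The log2 fold change between the genotypes correlated with GC content at r = 0.32 over the members and 0.33 over all. With the GC and length trends removed, Wnt8a and Ror1 still passed the criterion (-0.97 and -1.24), as 4.35% of all transcripts did. 5 members in all had an unadjusted p under 0.05, where 9.68% of all transcripts had one. They were Wnt8a, Fzd1 (-0.44), Ror1, Ror2 (0.48) and Csnk1a1 (0.33). That correction was chosen after the data had been seen.

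**Figure D4:**
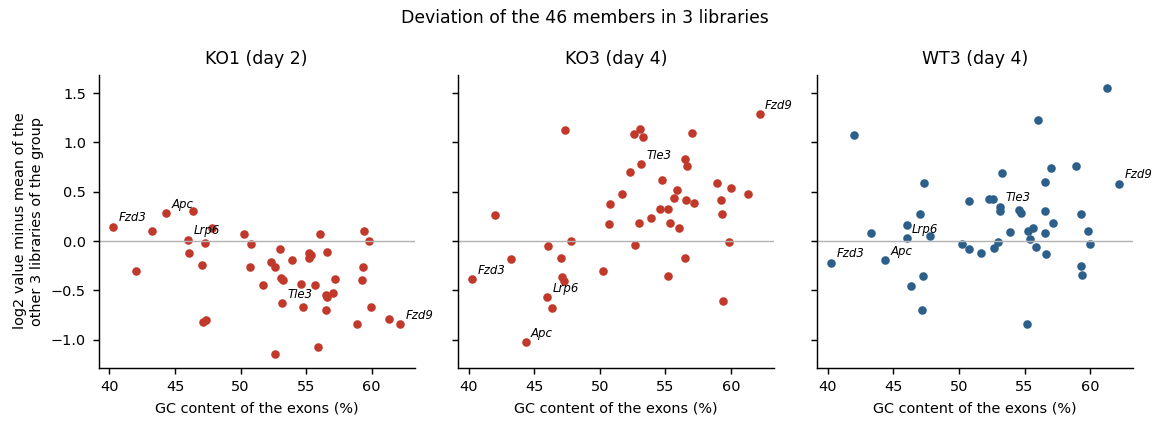
Deviation of each of the 46 members from the mean of the other 3 libraries of its group (y axis, log2) against the GC content of its exons (x axis, %) in KO library 1, KO library 3 and WT library 3. Apc and Fzd9 lie at opposite ends in KO library 3 and trade places in KO library 1.

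Beta-catenin and its nuclear partners among the members did not differ beyond the spread between libraries. Ctnnb1, the effector of the pathway, stood at 14221, 14754, 11709.7 and 14339 in KO and 12828, 14146, 13138 and 13289.5 in WT libraries, and only KO library 3 lay away from the rest. Its log2 fold change was 0.04 ± 0.12 (SE; unadjusted p = 0.76). These are transcript levels, and the amount of beta-catenin protein, which the pathway controls by degradation, was not measured in these libraries. Tcf7 was the most abundant TCF factor (446 per kilobase), followed by Tcf7l1 (259), the repressive factor of mES cells, and Tcf7l2 (34.1), with WT ranges apart. Tcf7 stood at 892, 823, 1437 and 932 in KO and 1327, 819, 1431 and 1101 in WT libraries, and the 2 day 4 libraries were nearly identical and the highest. The 3 TCF factors had log2 fold changes between -0.19 and -0.02 and unadjusted p-values of 0.48 or more. Lef1, a TCF/LEF factor outside the member list, stood at 92.8, 96.1, 58.1 and 139 in KO and 14.9, 114, 22.1 and 36.6 in WT libraries. The groups overlapped, with a log2 fold change of 1.32 ± 0.63 (SE; unadjusted p = 0.074). With the day as a block it was 1.00 (unadjusted p = 0.09). Of the Groucho co-repressors, Tle3 stood at 1062, 1359, 2208 and 1484 in KO and 1945, 1312, 1952 and 1408 in WT libraries (log2 fold change -0.13), with both day 4 libraries the highest of their group, and Tle1 gave -0.06.

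None of the inhibitors, feedback and turnover genes passed the test. Sfrp1, a secreted protein that binds Wnts, stood at 1194, 1034, 1477 and 1186 in KO and 1235, 851, 1384 and 1074 in WT libraries (log2 fold change 0.12, unadjusted p = 0.55). Nkd2, a Dishevelled inhibitor, stood at 40.6, 44.3, 87.5 and 39.9 in KO and 70.01, 25.1, 76.2 and 57.6 in WT libraries (log2 fold change -0.05), with KO library 3 well above the other KO libraries, and its relative Nkd1 gave -0.06. Lgr4, a receptor for R-spondins that protects Frizzled from turnover, was the most abundant turnover gene at 201 per kilobase and stood at 1142, 1146, 683 and 1007 in KO and 1016, 1255, 789 and 1003 in WT libraries (log2 fold change -0.03). The ubiquitin ligases that remove Frizzled, Znrf3 and Rnf43, gave -0.15 and 0.28. Rnf43 was the lowest member at 2.600 per kilobase, and no read was recovered for it in WT library 2, where a count of 0 allows 3 reads, or 5.28 normalized counts. Without WT library 3, which had 37 reads, Rnf43 was higher in KO by 0.82 (unadjusted p = 0.024), and without WT library 2 its sign turned (-0.28).

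Axin2, transcribed when beta-catenin is active and used widely as its readout, stood at 147, 173, 219.8 and 211 in KO and 148, 196, 237 and 240.1 in WT libraries. The groups were interleaved, with a log2 fold change of -0.12 ± 0.22 (SE) and an unadjusted p of 0.59. On the shared days it was lower in KO by small amounts (-0.18, -0.11 and -0.19), and the blocked fit gave -0.16 (unadjusted p = 0.15). Of 28 textbook beta-catenin targets, 19 were measured, Axin2, Nkd1, Rnf43, Znrf3 and Tcf7 among them, with a median log2 fold change of 0.31 against 0.00 over all transcripts. 3 of the 19 (15.8%) had an unadjusted p under 0.05, against 9.09% of all transcripts, and 1, Gbx2, passed the criterion, as 4.25% of all did. Gbx2, a transcription factor of naive pluripotency and of the early hindbrain, stood at 631, 1001, 684 and 1059 in KO and 210.5, 667, 363 and 389 in WT libraries. Its log2 fold change of 1.07 ± 0.37 (SE) had an unadjusted p of 0.022, and only WT library 2 lay within the KO range. The other 2 were Eomes (0.51, a mesendoderm factor) and Tnfrsf19 (-0.37, a receptor), each under a fold of 1.5. With the GC and length trends removed none of the 19 passed the criterion, and neither did any within clone E3 alone or without KO library 4. With the day as a block Cdx2, a factor of the posterior embryo, passed beside Gbx2 (0.91, unadjusted p = 0.013; WT library 1, at the floor, is not in that fit). Of 7 genes known to be repressed by Tcf7l1, Esrrb, Klf2, Tfcp2l1, Nanog, Tbx3, Nr0b1 and Fgf4, none had an unadjusted p under 0.05 in limma over 8 libraries, and 1, Nr0b1, had one with the day as a block (0.52, unadjusted p = 0.0045).

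Of 80 further genes of the pathway, 62 were measured. 8 of them (12.9%) had an unadjusted p under 0.05, 3 higher and 5 lower in KO, against the 9.09% of all transcripts. 2 passed the criterion, both lower, where 2.49% of all transcripts did in that direction. Dact1, an inhibitor that binds Dishevelled, stood at 103, 143, 156 and 113 in KO and 267, 203, 222 and 189.7 in WT libraries without overlap (log2 fold change of -0.79 ± 0.19 (SE), unadjusted p = 0.0041). Gpc3, a surface proteoglycan that binds Wnts, stood at 407, 343, 419 and 315 in KO and 889.8, 522, 676 and 420.2 in WT libraries, where the lowest WT library lay barely above the highest KO library (log2 fold change of -0.73 ± 0.25 (SE), unadjusted p = 0.023). Under a fold of 1.5 were Btrc (-0.45), which recognises phosphorylated beta-catenin, Prickle1 (-0.50) of the planar polarity arm, Tnks2 (-0.35), which turns Axin over, Dact2 (0.39), the Groucho-like Aes (0.54) and Pygo2 (0.27), a co-activator of beta-catenin. With the day as a block, Dact1 and Gpc3 came to -0.58 and -0.57, just under a fold of 1.5, with unadjusted p-values of 0.0048 and 0.0053. 3 others passed the criterion there, where 7.49% of all transcripts did in either direction. All 3 were higher in KO, so the direction of the calls turned. They were Aes (0.61, unadjusted p = 0.0036), the planar polarity cadherin Celsr1 (0.62, unadjusted p = 0.0025) and Lgr6, a relative of Lgr4 (0.66, unadjusted p = 0.047). The same 6 libraries without the block gave 2 higher and 0 lower, where 3.96% of all transcripts passed in either direction. Of the 62, 13 had an unadjusted p under 0.05 with the block, where 19.2% of all transcripts had one. Tnks2 no longer had one (unadjusted p = 0.071).

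Some members differed between the 2 clones. With the clone correction undone, 6 of 46 members (13%) had an unadjusted p under 0.05 between clone 1 and clone E3 in a fit with the genotype, where 8.32% of all transcripts had one. None passed after adjustment in limma, nor did any transcript (smallest adjusted p 0.27). Axin2 stood at 84.8, 111, 157, 134 and 175 in the 5 libraries of clone E3 (KO libraries 1, 2 and 3, then WT libraries 2 and 3) and at 273, 210.4 and 303 in the 3 of clone 1 (KO library 4, then WT libraries 1 and 4). All clone 1 libraries were above all clone E3 libraries, whatever the genotype, with a log2 difference of 0.95 ± 0.26 (SE; unadjusted p = 0.0077).

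Wls showed a larger clone difference, 37.03, 42.1, 68.4, 31.7 and 57.98 in clone E3 against 171, 62.03 and 209.7 in clone 1, with a log2 difference of 1.58 ± 0.45 (SE; unadjusted p = 0.009). WT library 1 is near the clone E3 values, and the additive correction left it at 9.99 while it left the other 7 libraries between 83.7 and 158. Wnt8a was higher in clone 1 as well (log2 difference of 0.81 ± 0.18 (SE; unadjusted p = 0.0028)), and so was Fzd3 (log2 difference of 0.58 ± 0.19 (SE; unadjusted p = 0.015)), whereas Dvl2 and Tcf7l1 were lower, with a log2 difference of -0.41 ± 0.16 (SE; unadjusted p = 0.035) and a log2 difference of -0.43 ± 0.17 (SE; unadjusted p = 0.037). Clone 1 was sampled on days 1 and 5 and clone E3 on days 2, 3 and 4, so clone and day cannot be told apart here. Whether the genotype acted differently in the clones was fitted as an interaction in limma, in which the effect in clone 1 rests on a single KO library that is assumed to vary like the others. No member and 12 transcripts passed after adjustment, and 2 of 46 members (4.35%, Wnt6 and Fzd4) had an unadjusted p under 0.05, against 2.59% of all transcripts. With the clone correction undone no member had one, against 1.76% of all transcripts, and no transcript passed after adjustment.

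**Figure D5:**
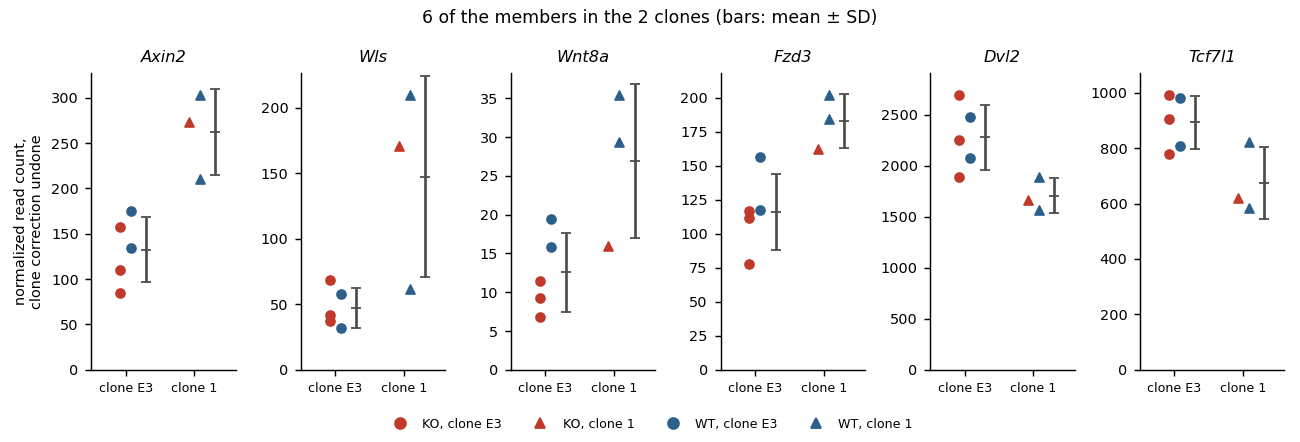
Normalized read counts with the clone correction undone (y axis, from 0) of the 6 members with an unadjusted p under 0.05 between the clones, in clone E3 (circles) and clone 1 (triangles), red for KO and blue for WT, with mean and SD as bars. Axin2 and Fzd3 do not overlap between the clones, and Wls in WT library 1 lies close to clone E3.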

How the data were processed

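Libraries (TruSeq RNA v2, not strand-marking) were sequenced in pairs and, per the labels and the study's methods, processed with CASAVA 1.8, Bowtie2 2.2.1 and TopHat2 against mm10, DESeq2 and Partek 6.6. The deposited signal is normalized read counts per transcript that the authors had corrected for clone and raised to a floor of 1. 0 per-sample columns were left unused. From these values whole reads were recovered for 13467 transcripts (99.3%), as a whole number scaled by the library and shifted by the transcript, which gave back 100% of their deposited values within 2 units of the last digit. On simulated data 99.9% of 13276 transcripts were recovered, each correctly. limma 3.58.1 (R 4.3.3) was fitted to log2(value + 1) of all transcripts with genotype and clone as terms, and p-values were adjusted by Benjamini-Hochberg. This fit was tested on simulated data, where it called 193 of 199 transcripts changed by 2 (log2) and 6 others among 13299 after adjustment. There, 558 unchanged ones passed the unadjusted criterion. The simulated libraries were independent, with a dispersion of 0.1 and no trend with day or GC content. In the real data Trim71, at -2.39 ± 0.35 (SE), had an adjusted p of 0.29 in limma. The simulated share called therefore does not carry over to these libraries. The 1 added before the log2 makes fold changes of low genes smaller. The clone correction could act the other way, as for Wnt6, with 1.51 as deposited and 1.20 with the correction undone. Exon lengths and positions came from GENCODE (GRCm38), which matched 99.3% of symbols. Python 3.11.15 with numpy 2.4.6 and pandas 2.3.3 did the rest.

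Same-day pairs were taken as pairs because the labels give them one day. With the clone correction undone their deviations correlated at 0.52 to 0.63, against -0.42 to 0.34 for different days, and in the deposited values at -0.23 to 0.54. They also share a clone. The members and the other lists were chosen with earlier results of these data known. Trim71 came first, members with an unadjusted p under 0.05 or without overlap and the most abundant of each role are given by library, and the others by their values or ranges. Other pathway genes and targets were named when past the criterion. Those named short of it were chosen after their values were seen. So were the further members given by library and the promoters of Ror1 and Fzd1. Reads of overlapping or antisense genes cannot be told apart without strand. Alternatives were other pseudocounts, filters, scalings, spread priors and models, the undone correction, day as a block, 1 clone, and each library left out.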

Additional observations from a re-analysis of the deposited data

Results flagged for a closer look

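In 92 groups of 4 libraries (46 members in each genotype) the gap between the lowest or highest library and its neighbour was compared with the whole range of the group. 4 of them exceeded Dixon's 95% critical value, where chance alone flags about 1 in 20. Axin1, a scaffold of the destruction complex, was 1631 in KO library 3 against 1201 to 1243 in the other KO libraries. Nkd2, a Dishevelled inhibitor, was 87.5 in the same library against 39.9 to 44.3. Both kept a gap of that size with the clone correction undone. KO library 3 is the library whose values rose most with GC content; the part of GC content in these 2 values was not tested. Csnk1a1, a kinase of the complex, was 3377 in WT library 1 against 3780 to 3855, and Rnf43, a ubiquitin ligase for Frizzled, was 10.2 in KO library 2 (7 reads) against 12.8 to 13.3. Both gaps were below the critical value with the correction undone.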

How the results depend on the processing

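The 24 alternatives gave 1089 values for the members besides the fit reported. 1033 kept their side of an unadjusted p of 0.05, 25 lost it and 31 gained it, and no member changed sign where either fit passed. 147 values of 29 members changed sign without passing in either fit. Of 46 members, 3 passed the criterion and 4 an unadjusted p under 0.05. With transcripts of a mean of at least 50 only (33 members) both counts were 1, because Wnt8a, Ror1 and Fzd1 fall under it. Of all such transcripts 2.84% and 9.26% passed. With the replicate block by day, which pairs libraries of 1 day, the counts were 5 and 9, where 7.49% and 19.2% of all transcripts passed. With voom on reads and that block they were 6 and 9, where 8.12% and 24.6% of all did. With the GC and length trends removed and the block, 9 members had an unadjusted p under 0.05, as 16.3% of all transcripts had. Within clone E3 alone 2 did, against 2.77% of all. Leaving out 1 library gave 2 to 4 for both, where 1.92% to 6.16% and 3.26% to 10.7% of all passed. Of the other pathway genes 2 passed the criterion, 1 in the linear model, 4 with voom and the block, and 1 to 4 with 1 library left out. Of the beta-catenin targets 1 passed, but 0 with GC and length trends removed or in clone E3 alone. 2 passed with the correction undone, the linear model, a pseudocount of 10, quantile normalization, the block or the same 6 libraries without it, 3 without a clone term or with voom and the block, and 4 with voom or with both trends removed and the block. Leaving out 1 library gave 0 to 3. Over all transcripts the share past the criterion in these fits ran from 1.92% (without KO library 4) to 8.12% (voom with the block). The causes of these shifts were not tested. The paired fit changed no member's call other than those given beside the results. The 4 WT and 4 KO libraries allow no exact p below 0.0286, and members under about 50 normalized counts rest on few reads in the shallow libraries.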
